A study of Mus musculus with 7 samples.

Results

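The enzymes described here are the aminoacyl-tRNA synthetases of the mouse, as far as the gene list behind the set goes. The set was fixed by name: it holds 36 of the 50600 genes in the tables, 20 of them encoding cytosolic or shared enzymes and 16, whose symbols end in 2, encoding mitochondrial ones. All 36 passed the filter on low counts, so all were tested among 14149 genes. Mars1 is listed under its older symbol Mars in the tables. The list does not hold every mitochondrial synthetase.

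RNA was sequenced from 4 mammary tumours of ECD transgenic mice and from 3 control mammary glands. By histology they were a pair of adenosquamous carcinomas (1a, 1b), a Spindle Cell Carcinoma (tumour 3) and a papillary one (tumour 4), so the adenosquamous type has 2 libraries and each of the other types has 1. The labels call the tumours ECD transgenic and the glands control, and give no strain, age, promoter or genotype of the control animals. RNA was taken from a central piece of each tumour. The labels do not say whether tumours 1a and 1b came from the same animal.

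An aminoacyl-tRNA synthetase joins an amino acid to the tRNAs that carry its anticodons, and the charged tRNA then brings that amino acid to the ribosome. Animal cells run this reaction in the cytosol and again inside mitochondria, where a separate ribosome translates the few mRNAs of mitochondrial DNA. For most amino acids the mitochondrial enzyme comes from its own nuclear gene. Glycyl- and lysyl-tRNA synthetase serve both compartments from a shared gene, Gars and Kars, and Eprs encodes a fused protein that charges tRNAs with glutamate and with proline. In mammals several cytosolic enzymes sit together with 3 scaffold proteins in the multisynthetase complex. Many cytosolic synthetase genes are known targets of ATF4, the transcription factor of the amino acid and integrated stress responses.

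Total counts were 7986916, 5420562, 6654544 and 28638143 for tumours 1a, 1b, 3 and 4, and 5148438, 35631279 and 34079708 in control glands 1, 2 and 3. Genes of mitochondrial DNA took 18.34% to 32.61% of counts in the tumours and 48.36% to 64.83% in the glands. The cytosolic synthetases together held between 2173 counts in gland 1 and 32523 in the papillary tumour, and the mitochondrial ones between 770 and 8104 in the same libraries. In gland 1, the shallowest library for these genes, the counts of single members ran from 14 (Farsa) to 499 (Eprs) in the cytosolic set and from 0 (Pars2) to 323 (Iars2) in the mitochondrial set. Markers of other tissue differed between the groups and among the glands. The summed level of 10 fat cell markers was 10.05 to 636.2 CPM (counts relative to library size) in tumours and 3843 to 8041 CPM in glands, and Adipoq, Cidec, Cfd and Retn were at 0 in the spindle cell tumour. The summed level of 12 skeletal muscle markers was 6.411 to 768.7 CPM in tumours, and 55100, 100.7 and 85890 CPM in glands 1, 2 and 3, so gland 2 stood apart from the other glands. In the spindle cell tumour the muscle markers Myh1, Tnnt3, Tnnc2, Pvalb and Myoz1 were at 0. Gland 2 also stood apart in 8 lymphocyte markers, which summed to 42.44, 446.4 and 32.33 CPM in glands 1, 2 and 3. Their sums were 237.7, 166.1, 17.74 and 20.84 CPM in tumours 1a, 1b, 3 and 4. Basal epithelial markers summed to 790.5 to 2113 CPM in tumours and 282.2 to 486.9 CPM in glands, and fibroblast markers to 270.1 to 5957 CPM in tumours and 443.2 to 1297 CPM in glands. The members of these lists were not alike. Over all tumours 8 of 10 basal markers had a log2 fold change above 0 (median 2.42), but in the papillary tumour 4 did (median -0.46). Of 8 fibroblast markers 3 were above 0, with a median of -0.63, and the highest sums were those of tumours 1a (5957 CPM) and 1b (1627 CPM). All 16 listed mitosis genes rose, with a median log2 fold change of 4.26, and 5 of them passed without gland 3. Of all genes tested 3.9% rose, and 0.155% did without gland 3. The part of fat, muscle, other cell types and dividing cells in the values of the synthetases was not tested. In pieces of tissue such as these, fewer cells of a type and less RNA per cell cannot be told apart.

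The cytosolic synthetases leaned towards higher levels in the tumours, while the mitochondrial enzymes were spread around no difference. Of 20 cytosolic members 1 rose, 0 fell and 19 did not pass at an adjusted p under 0.05, against 3.9% of all genes tested that rose and 4.57% that fell. The member that rose was Vars, for valyl-tRNA synthetase. The log2 fold change of tumours over glands was above 0 for 19 of the 20, with a median of 0.61, and above 0.5 for 15. Over all genes tested the median was 0.12, with 54.8% above 0 and 35.4% above 0.5. In 10 cytosolic members every tumour lay above every gland, and in 1, Farsb, every tumour lay below every gland, against 16.3% and 13.2% of all genes. At unadjusted p under 0.05, 10 were higher and 0 lower, against 15.8% and 13.1% of all genes. DESeq2 called 7 cytosolic members higher and 0 lower, but it called 13% of all genes higher and 11.5% lower.

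Of 16 mitochondrial members 0 rose and 0 fell in edgeR, and their median log2 fold change was 0.01, with 8 above 0. At unadjusted p under 0.05 there was 1 member, Fars2, on the lower side. DESeq2 called 1 mitochondrial member, again Fars2, lower, and limma-voom called 0 (4.46% of all genes higher and 6.31% lower). Every tumour lay above every gland for Vars2 and below for Fars2, and the groups overlapped for the other 14. Over all genes the shares above and below were 16.3% and 13.2%. The difference between the medians of the sets, cytosolic minus mitochondrial, was 0.60 on the log2 scale. It ran from 0.451 to 0.783 when each library was left out in turn.

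**Figure D1:**
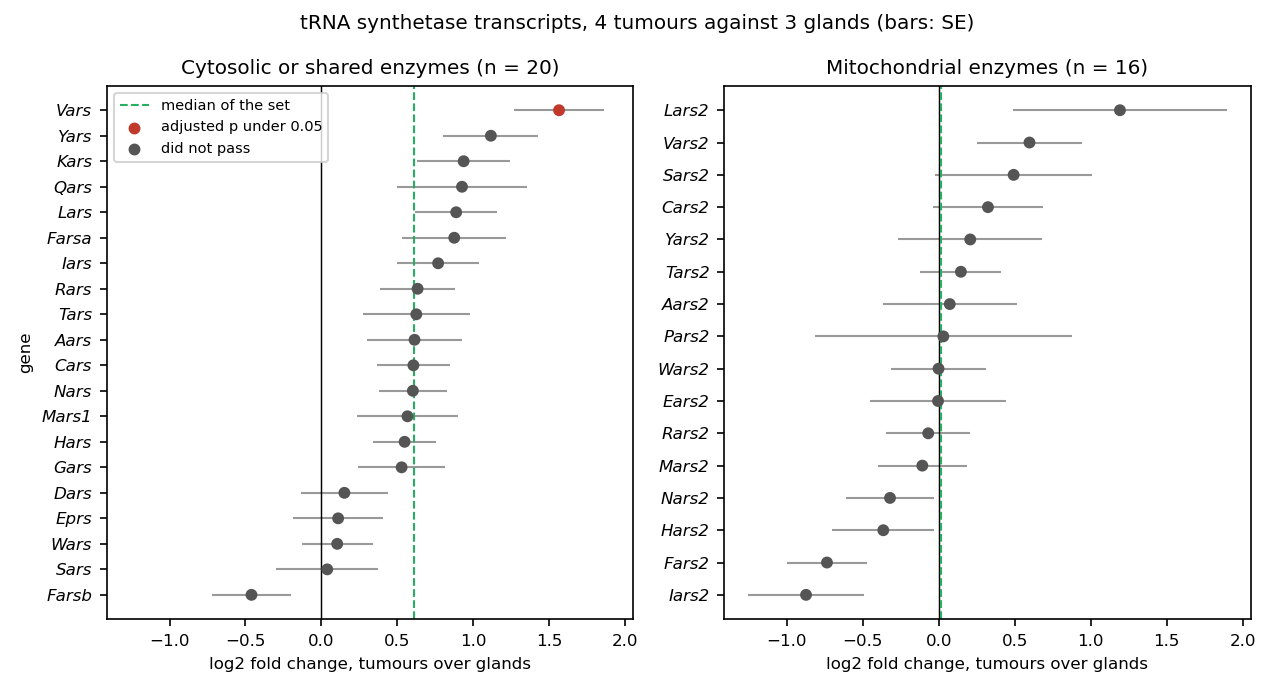
Each point is the log2 fold change of a member, 4 tumours over 3 glands, from the fit across all genes, with its standard error as a bar, for the cytosolic or shared enzymes (left) and the mitochondrial enzymes (right). Vars, in red at 1.56, is the point that passed, and the dashed medians lie at 0.61 for the cytosolic and 0.01 for the mitochondrial set.

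Summed over the set, the levels per kilobase of exon showed the same split. The cytosolic enzymes summed to 201.5, 170.2, 212.8 and 219.1 RPKM (CPM divided by exon kilobases) in tumours 1a, 1b, 3 and 4, against 141.9, 129.2 and 148.3 RPKM in glands 1, 2 and 3. Every tumour lay above every gland, and the mean was 200.9 ± 21.7 RPKM in tumours (SD, n = 4) and 139.8 ± 9.72 RPKM in glands (SD, n = 3), a ratio of 1.44. The median level of the cytosolic members did overlap between the groups, as tumour 1b (6.992 RPKM) lay below gland 3 (7.934 RPKM). The mitochondrial enzymes summed to 23.73, 26.62, 36.62 and 40.71 RPKM in the tumours, against 40.67, 33.46 and 31.25 RPKM in the glands. These overlapped, with both adenosquamous tumours below every gland and the papillary tumour beside gland 1. The ratio of the sums, cytosolic over mitochondrial, was 8.49, 6.40, 5.81 and 5.38 in the tumours and 3.49, 3.86 and 4.74 in the glands, so the groups did not overlap. Without Iars2 and Lars2, the mitochondrial members at either end of the range, it was 10.16, 8.73, 7.57 and 8.37 in the tumours and 5.44, 5.399 and 6.36 in the glands. These ratios compare levels within a library, so library scaling does not enter. Among all 36 members the highest mean level in tumours was that of Nars, at 19.0 RPKM, and in glands that of Sars, at 16.3 RPKM. Of the 20 highest mean levels, mitochondrial enzymes held 1 in tumours (Iars2) and 4 in glands (Iars2, Rars2, Hars2 and Fars2).

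Vars was the member with the clearest difference. Valyl-tRNA synthetase is a free cytosolic enzyme that in mammals binds elongation factor 1, and its gene (ENSMUSG00000007029) lies at chr17:35000987-35016322 on the plus strand of GRCm38. Vars was at 33.5, 24.4, 47.9 and 39.4 CPM in tumours 1a, 1b, 3 and 4, against 12.7, 10.9 and 13.2 CPM in glands 1, 2 and 3. Every tumour lay above every gland, and the glands were close to each other. The mean was 36.3 ± 9.91 CPM in tumours and 12.3 ± 1.20 CPM in glands, a 2.96-fold rise (log2 1.56, SE 0.30, adjusted p = 0.0243). The call was lost without gland 1 (adjusted p = 0.0811), gland 2 (0.0907), gland 3 (0.0994) or the spindle cell tumour (0.0535), while the log2 fold change stayed between 1.44 and 1.76. Vars2, its mitochondrial counterpart on the same chromosome, was at 6.47, 6.94, 12.3 and 11.2 CPM in the tumours and 6.37, 6.05 and 5.92 CPM in the glands. Its groups did not overlap either, by a narrow margin in tumour 1a, and the difference did not pass (log2 0.60, SE 0.35, adjusted p = 0.292). The level of Vars relative to Vars2, per kilobase, was 5.03, 3.42, 3.79 and 3.43 in the tumours against 1.95, 1.75 and 2.17 in the glands.

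The 8 enzymes of the multisynthetase complex, Dars, Eprs, Iars, Kars, Lars, Mars1, Qars and Rars, all had a log2 fold change above 0, with a median of 0.70, and 0 passed in edgeR. At unadjusted p under 0.05, 4 of them were higher and 0 lower, against 15.8% and 13.1% of all genes. DESeq2 called Iars, Kars and Lars higher, where it called 13% of all genes higher, and limma-voom called 0. Their summed level was 82.9, 70.41, 93.24 and 102.6 RPKM in the tumours and 56.19, 46.75 and 66.31 RPKM in the glands, without overlap. Every tumour lay above every gland for Iars, Kars, Lars and Rars, the enzymes of isoleucine, lysine, leucine and arginine, against 16.3% of all genes. Kars was at 68.3, 43.7, 56.6 and 54.8 CPM in the tumours and 20.9, 25.5 and 40.9 CPM in the glands (log2 0.94, SE 0.31, adjusted p = 0.0996). Lars was at 52.3, 49.5, 74.2 and 63.4 CPM in the tumours and 30.8, 25.9 and 40.4 CPM in the glands (log2 0.89, SE 0.27, adjusted p = 0.0823). The leucyl enzyme is also known as a leucine sensor of the mTORC1 pathway. Iars was at 60.7, 51.4, 67.6 and 80.0 CPM in the tumours and 32.9, 32.2 and 49.1 CPM in the glands (log2 0.77, SE 0.27, adjusted p = 0.117). Rars was nearly even among the tumours, at 57.3 to 60.9 CPM, against 29.6 to 49.9 CPM in the glands (log2 0.63, adjusted p = 0.143).

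Qars, the glutaminyl enzyme (chr9:108507706-108515941), was uneven among the tumours. It was at 32.0, 39.2, 63.9 and 102 CPM in tumours 1a, 1b, 3 and 4, against 34.0, 27.6 and 32.4 CPM in the glands. The adenosquamous tumours lay in or just above the range of the glands, and the spindle cell and papillary tumours lay above them. Over the 4 tumours the mean was 59.4 ± 31.8 CPM, against 31.3 ± 3.30 CPM in glands (log2 0.93, SE 0.43, adjusted p = 0.197), and without the papillary tumour the log2 fold change was 0.46. Mars1, the methionyl enzyme that charges the initiator tRNA, had a log2 fold change of 0.57 with overlapping groups (adjusted p = 0.295). Dars, the aspartyl enzyme, and Eprs lay close to no difference, at log2 0.15 and 0.11. Eprs had the highest counts of all members, with 125 to 199 CPM in tumours and 106 to 176 CPM in glands.

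Among the 11 free cytosolic enzymes the median was 0.61, and Yars, Cars, Hars, Nars and Farsa joined Vars in having every tumour above every gland. Of all genes 16.3% did so. Yars, the tyrosyl enzyme, was at 26.6, 23.0, 27.2 and 39.9 CPM in the tumours and 9.55, 13.8 and 16.8 CPM in the glands, a log2 fold change of 1.12 that came near the threshold (SE 0.31, adjusted p = 0.0684). Hars and Nars, for histidine and asparagine, varied little among the tumours. Hars was at 29.7 to 31.6 CPM in tumours and 18.4 to 23.2 CPM in glands (log2 0.55, SE 0.21, adjusted p = 0.136), and Nars at 71.7 to 89.6 CPM in tumours and 46.1 to 63.3 CPM in glands (log2 0.60, SE 0.23, adjusted p = 0.132). Cars, the cysteinyl enzyme, had a log2 fold change of 0.61 (adjusted p = 0.150). The groups overlapped for Aars (log2 0.61, adjusted p = 0.234) and Tars (log2 0.62, adjusted p = 0.273), for alanine and threonine, and also for Gars of the shared enzymes (log2 0.53, adjusted p = 0.258). Sars, the seryl enzyme, and Wars, the tryptophanyl enzyme known as an interferon-induced gene in human cells, lay near 0 at log2 0.04 and 0.10. Sars was at 76.7, 82.0, 102 and 82.2 CPM in the tumours, inside the 46.8 to 119 CPM of the glands, and its sign turned under DESeq2 and under median-ratio scaling (log2 -0.02 and -0.03).

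The phenylalanyl enzyme is the only cytosolic synthetase of the set built from products of 2 genes, the catalytic subunit gene Farsa (chr8:84856989-84869257) and the other subunit's gene Farsb (chr1:78417975-78488897), and their log2 fold changes had opposite signs. Farsa was at 18.6, 15.2, 15.3 and 17.2 CPM in tumours 1a, 1b, 3 and 4, against 4.95, 10.2 and 11.7 CPM in glands 1, 2 and 3. All tumours lay above all glands, and gland 1 was the lowest library, with 14 counts (log2 0.87, SE 0.34, adjusted p = 0.143). Farsb was at 12.7, 18.5, 18.6 and 18.6 CPM in the tumours, against 19.1, 23.3 and 28 CPM in the glands. All tumours lay below all glands, although gland 1 was close to tumours 1b, 3 and 4. Its mean was 17.1 ± 2.94 CPM in tumours and 23.5 ± 4.46 CPM in glands, the lowest log2 fold change of the cytosolic set (log2 -0.46, SE 0.26, adjusted p = 0.278). Neither difference passed. The level of Farsa over that of Farsb per kilobase, a ratio chosen after its values were seen, was 0.849, 0.476, 0.473 and 0.536 in the tumours and 0.150, 0.252 and 0.240 in the glands. Its mean was 0.583 ± 0.179 in tumours and 0.214 ± 0.056 in glands, 2.73 times as high.

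**Figure D2:**
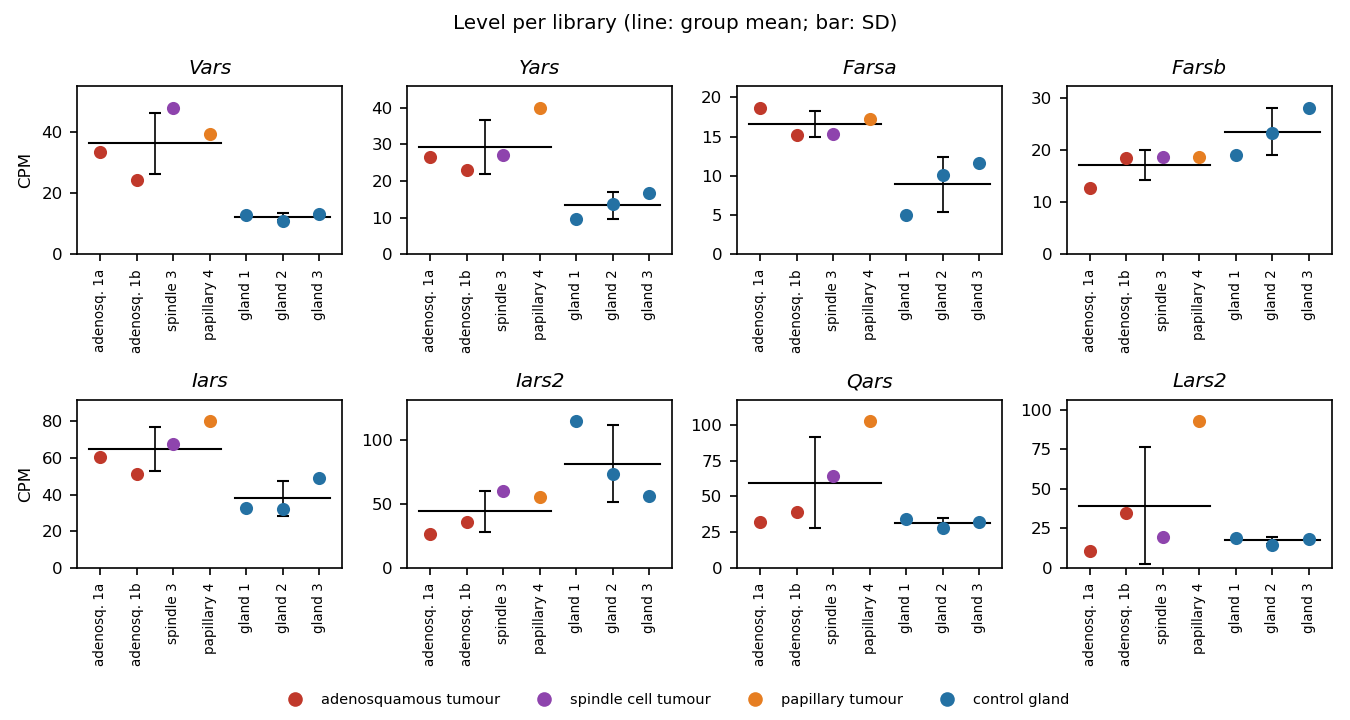
Level in CPM of 8 members in each library, with the 4 tumours left of the 3 glands, a line at the group mean and a bar for its SD. Vars, Yars, Farsa and Iars lie higher in every tumour and Farsb lower, Iars2 is highest in gland 1 at 114 CPM, and Qars and Lars2 are highest in the papillary tumour at 102 and 92.7 CPM.

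The promoters of the cytosolic genes were searched for a pair of short motifs, since ATF4 is known to act on synthetase genes through C/EBP-ATF response elements and Myc-type factors bind the E-box. Windows of 250 bases before to 50 bases after the start, from RefSeq on GRCm38.p6, were found for 13 cytosolic and 14 mitochondrial members. The motif TGATGNAA, on either strand, was in 5 of the 13 cytosolic windows (38.5%), those of Aars, Gars, Iars, Tars and Yars, and in 0 of the 14 mitochondrial ones, against 3.97% of 32851 promoters. The E-box CACGTG, whose complement reads the same, was in 4 cytosolic windows (Aars, Iars, Tars and Farsb) and in 1 mitochondrial window (Ears2), against 7.15% of promoters. The 5 windows that hold TGATGNAA are shown because they carry this difference between the sets, and the window of Iars2, which has neither motif, because it pairs with that of Iars. Matches are in capitals (TGATGNAA reads TTNCATCA on the other strand), position -1 is the base before the start, and each sequence runs with its gene.
Aars (chr8:111033592-111033891, plus strand): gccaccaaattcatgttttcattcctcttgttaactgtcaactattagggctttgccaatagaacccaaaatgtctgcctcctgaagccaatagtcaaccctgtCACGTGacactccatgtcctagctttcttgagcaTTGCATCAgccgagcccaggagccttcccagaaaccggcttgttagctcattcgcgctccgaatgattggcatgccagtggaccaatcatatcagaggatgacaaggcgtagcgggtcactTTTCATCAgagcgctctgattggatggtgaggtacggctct
Gars (chr6:55037751-55038050, plus strand): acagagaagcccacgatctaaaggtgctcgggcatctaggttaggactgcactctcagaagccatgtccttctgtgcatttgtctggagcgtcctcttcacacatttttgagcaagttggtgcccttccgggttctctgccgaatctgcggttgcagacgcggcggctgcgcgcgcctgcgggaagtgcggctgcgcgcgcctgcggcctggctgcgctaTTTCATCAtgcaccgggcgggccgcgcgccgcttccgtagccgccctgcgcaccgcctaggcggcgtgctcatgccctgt
Iars (chr13:49681880-49682179, plus strand): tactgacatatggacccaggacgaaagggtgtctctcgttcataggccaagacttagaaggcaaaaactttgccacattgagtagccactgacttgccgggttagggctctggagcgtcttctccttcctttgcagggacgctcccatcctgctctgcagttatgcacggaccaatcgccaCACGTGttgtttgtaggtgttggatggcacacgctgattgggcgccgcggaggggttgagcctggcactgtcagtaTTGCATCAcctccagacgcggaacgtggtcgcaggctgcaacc
Tars (chr15:11399609-11399908, minus strand): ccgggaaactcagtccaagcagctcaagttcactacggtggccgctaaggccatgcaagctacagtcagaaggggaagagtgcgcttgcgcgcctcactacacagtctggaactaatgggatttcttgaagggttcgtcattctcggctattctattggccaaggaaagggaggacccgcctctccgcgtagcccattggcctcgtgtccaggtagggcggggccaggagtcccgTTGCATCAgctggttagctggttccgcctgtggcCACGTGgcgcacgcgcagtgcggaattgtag
Yars (chr4:129189653-129189952, plus strand): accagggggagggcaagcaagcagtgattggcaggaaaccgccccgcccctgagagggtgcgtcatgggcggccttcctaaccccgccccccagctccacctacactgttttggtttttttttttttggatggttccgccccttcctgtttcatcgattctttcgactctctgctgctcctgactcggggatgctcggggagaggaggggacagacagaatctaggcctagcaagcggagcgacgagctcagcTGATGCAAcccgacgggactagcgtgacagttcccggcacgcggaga
Iars2 (chr1:185329352-185329651, minus strand): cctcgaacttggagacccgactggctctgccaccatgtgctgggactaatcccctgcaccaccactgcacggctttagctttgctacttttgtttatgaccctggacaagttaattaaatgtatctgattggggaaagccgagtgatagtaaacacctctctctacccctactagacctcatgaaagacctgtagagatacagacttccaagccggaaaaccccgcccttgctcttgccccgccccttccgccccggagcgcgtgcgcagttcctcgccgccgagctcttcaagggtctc

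In Aars the TGATGNAA matches begin at -112 and +10, in Gars at -30, in Iars at +8, in Tars at -15 and in Yars at +4. Yars holds the motif on the gene's own strand and the other 4 on the opposite strand. The log2 fold changes of these 5 genes ran from 0.53 to 1.12 with a median of 0.62, and 0 of them passed in edgeR, while Iars and Yars, 2 of the 5, were higher at unadjusted p under 0.05 and in DESeq2. In the 8 cytosolic members with a window but no match the median was 0.36 and the range -0.46 to 0.94. Cytosolic members without a window are in neither group. Their log2 fold changes were 0.61 (Cars), 0.55 (Hars), 0.89 (Lars), 0.60 (Nars), 0.63 (Rars), 1.56 (Vars) and 0.10 (Wars). Whether genes with the motif differed from the others was not tested. A match is a string of letters in this window and was not measured as a bound site, and windows of 9 members, Vars among them, were not analysed here.

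Among the mitochondrial enzymes Lars2 and Iars2 marked the ends. Lars2, the mitochondrial leucyl enzyme (chr9:123366927-123462666), was at 10.6, 34.8, 19.3 and 92.7 CPM in tumours 1a, 1b, 3 and 4, against 19.1, 14.4 and 18.3 CPM in glands 1, 2 and 3. The tumours lay on both sides of the glands. The mean was 39.3 ± 36.9 CPM in tumours and 17.3 ± 2.49 CPM in glands (log2 1.19, SE 0.70, adjusted p = 0.295), and without the papillary tumour the log2 fold change was 0.25. Gm42418, a transcript annotated over ribosomal RNA sequence, was at 414.9, 819.5, 587.3 and 994.5 CPM in the same tumours and 209.7, 124.8 and 119.8 CPM in the glands. Among the tumours both Lars2 and Gm42418 increased in the order 1a, 3, 1b and 4, while among the glands their orders differed. Of 11292 stretches of 75 bases in Lars2 transcripts, 0 also occur in transcripts of another GENCODE M21 gene, counting exact matches on either strand. This search did not cover inexact matches or sequence outside those transcripts, so it cannot show whether ribosomal RNA reads entered the Lars2 values. The part of Gm42418 in the Lars2 values was not tested.

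Iars2, the mitochondrial isoleucyl enzyme (chr1:185284726-185329396, minus strand), was at 26.2, 35.4, 60 and 55 CPM in the tumours, against 114, 73.2 and 55.9 CPM in glands 1, 2 and 3. The adenosquamous tumours lay below every gland, and the spindle cell tumour lay between glands 3 and 2. The mean was 44.1 ± 16 CPM in tumours and 81.1 ± 30.0 CPM in glands (log2 -0.87, SE 0.38, adjusted p = 0.179), and without gland 1 the log2 fold change was -0.53. Rab3gap2, on the other strand, shares 22.9% of the exon length of Iars2 and was at 39.2 ± 5.5 CPM in tumours and 30.3 ± 5.54 CPM in glands. Because the libraries do not mark strand, reads of that stretch cannot be assigned to either gene. In all, 8 members share exon bases with a gene on the other strand above 1 CPM, and Exosc6 lies on the same strand over 14.3% of the exon length of Aars, at 2.49 CPM. With gland 2, the gland low in skeletal muscle markers and high in lymphocyte markers, as the only control, the log2 fold change of Iars2 was -0.79.

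Fars2, the phenylalanyl enzyme of mitochondria, varied little among the tumours, at 10.2, 10.8, 11.6 and 11.2 CPM, against 23.7, 16.9 and 14.5 CPM in the glands. All tumours lay below all glands (11 ± 0.614 CPM in tumours and 18.4 ± 4.78 CPM in glands, log2 -0.74, SE 0.27, adjusted p = 0.121). Hars2 and Nars2, for histidine and asparagine, had log2 fold changes of -0.37 and -0.32 with overlapping groups. Hars2 stands head to head with Hars, and the genes share 195 exon bases. Sars2 and Cars2, for serine and cysteine, had log2 fold changes of 0.49 and 0.32, and Yars2, Tars2, Aars2, Pars2, Wars2, Ears2, Rars2 and Mars2 lay between -0.11 and 0.21. Pars2, the prolyl enzyme, was the least well measured, with 0 counts in gland 1 and 9 to 83 counts elsewhere (log2 0.03, SE 0.85). A count of 0 in that library allows up to 3 counts, for counting error only. The depth of gland 1 limits what the mitochondrial set can show, since Sars2 and Yars2 had 3 and 4 counts there.

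Comparing the cytosolic with the mitochondrial enzyme for the same amino acid removes library scaling and gene length from the tumour minus gland difference. For 16 amino acids both enzymes were members, Eprs standing for glutamate and for proline and Farsa, 1 of its enzyme's subunits, for phenylalanine. The log2 ratio of cytosolic to mitochondrial counts (with 0.5 added to each) was higher in tumours than in glands for 14 of the 16, with a median difference of 0.69. Within a library the median log2 ratio was 2.395, 2.009, 1.922 and 1.698 in tumours 1a, 1b, 3 and 4. It was 1.722, 1.049 and 1.384 in glands 1, 2 and 3, so the papillary tumour lay just below gland 1. In 7 pairs every tumour lay above every gland (phenylalanine, isoleucine, valine, asparagine, histidine, tyrosine and arginine), and in 0 pairs did every tumour lie below. How often ratios of other gene pairs separate the groups was not counted, so these counts have no share to stand beside. With the other subunit gene, Farsb, in the phenylalanine pair, an alternative chosen after seeing the data, 6 pairs separated the groups and the median difference was 0.54. With 4 libraries against 3, an exact two-sided permutation test cannot give a p below 0.0571, so none is given. The pairs share their libraries and are not independent.

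For phenylalanine the log2 ratio Farsa over Fars2 was 0.87, 0.50, 0.39 and 0.62 in tumours 1a, 1b, 3 and 4, against -2.22, -0.74 and -0.31 in glands 1, 2 and 3, a difference of means of 1.68. So counts of Fars2 exceeded those of Farsa in every gland and in no tumour. The sign of a count ratio depends on exon length. Per kilobase, Fars2 exceeded Farsa in glands 1 and 2 but not in gland 3 (2.516 RPKM against 2.57 RPKM). The ratio Farsb over Fars2 was 0.31, 0.78, 0.68 and 0.72 in the tumours and -0.31, 0.46 and 0.95 in the glands, which overlapped, with a difference of 0.25, so the phenylalanine result holds for Farsa and not for Farsb. For isoleucine the log2 ratio Iars over Iars2 was 1.21, 0.54, 0.17 and 0.54 in the tumours and -1.79, -1.18 and -0.19 in the glands, a difference of 1.67. Here too the sign changed between the groups in counts. Per kilobase, Iars already exceeded Iars2 in gland 3 (9.306 RPKM against 6.29 RPKM). For asparagine, Nars over Nars2, the log2 ratio was 3.06 to 3.39 in tumours and 2.17 to 2.43 in glands. At the other end, proline had a difference of -0.60 and serine of -0.51. Both rest on gland 1, where Pars2 had 0 and Sars2 had 3 counts, and without that library the differences were 0.71 and 0.32. With 5 added to each count in place of 0.5, the proline difference was 0.22. The tumour minus gland difference for leucine was 0.16, as Lars and Lars2 both had positive log2 fold changes (0.89 and 1.19).

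**Figure D3:**
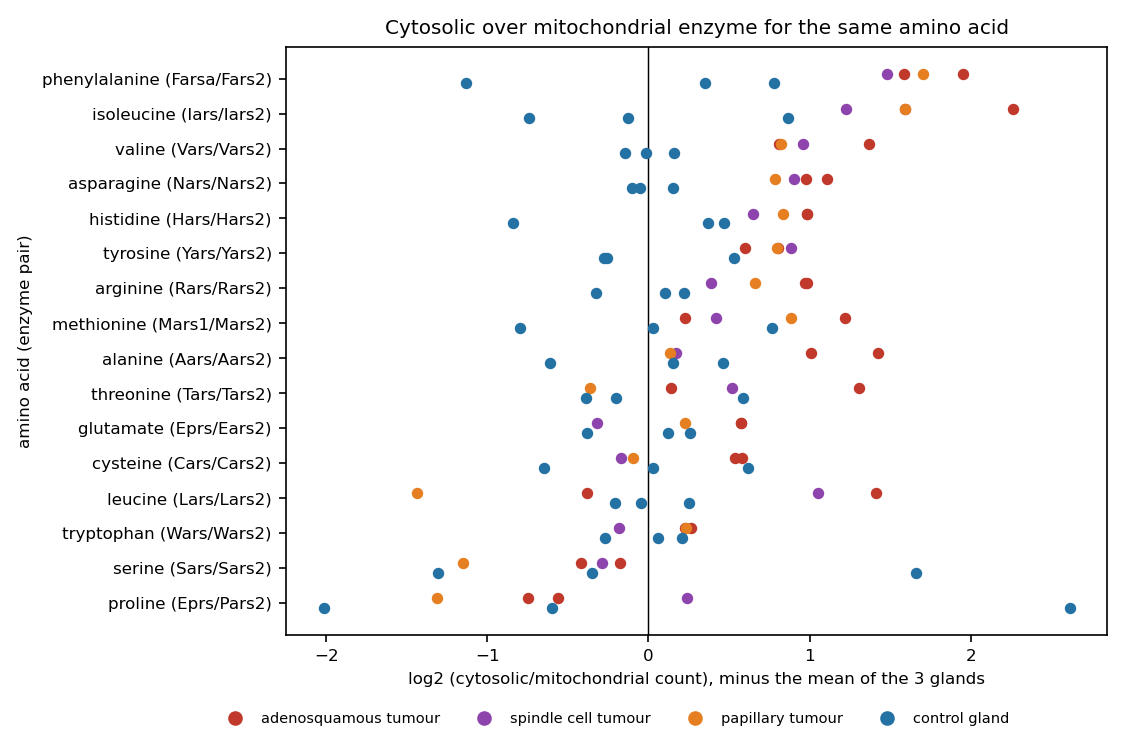
The log2 ratio of cytosolic over mitochondrial enzyme counts for 16 amino acids, with the mean of the 3 glands set to 0, 1 point per library and tumours drawn just above glands in each row. Phenylalanine is drawn with Farsa, and in the 7 pairs from phenylalanine down to arginine all tumour points lie to the right of all gland points.

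The types were described by the same medians, with no test of a difference between types for a whole set. The median log2 fold change of the cytosolic members was 0.54 for adenosquamous, 0.67 for spindle cell and 0.67 for papillary tissue, against 0.02, 0.00 and -0.01 over all genes. For the mitochondrial members it was -0.32, 0.22 and 0.14, with 5, 10 and 11 of 16 above 0, where all genes had 51.1%, 50% and 49.8% above 0. The types share the same 3 glands, and the spindle cell and papillary types have 1 library each, so their spread is borrowed from the other groups. Vars rose in each type: log2 1.24 (adjusted p = 0.0452) in adenosquamous, 1.97 (0.0492) in spindle cell and 1.68 (0.0340) in papillary tumours, where 5.52%, 1.11% and 5.7% of all genes rose and 5.33%, 0.77% and 5.41% fell. In the papillary tumour Qars (log2 1.71, SE 0.31, adjusted p = 0.0284) and Lars2 (log2 2.43, SE 0.59, adjusted p = 0.0497) rose as well. With a gland or an adenosquamous tumour left out in turn, Vars lost its call in all 3 types each time, Qars kept it only without gland 1 (adjusted p = 0.0496), and Lars2 only without tumour 1a (0.0379) or 1b (0.0431). The Lars2 call was also lost under median-ratio scaling (0.0539) and upper-quartile scaling (0.0564), and that of Vars in the adenosquamous tumours without the low-count filter (0.0576).

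In edgeR 0 members passed the test of the difference among the 3 types, which 0.495% of all genes passed. At unadjusted p under 0.05 there were 2 of 36, Qars and Lars2, against 19.7% of all genes, and no other tool was run on this difference. The smallest adjusted p in the cytosolic set was that of Qars (0.135), with log2 fold changes of 0.19, 1.03 and 1.71 in adenosquamous, spindle cell and papillary tumours. In the mitochondrial set it was that of Lars2 (0.200), with 0.39, 0.17 and 2.43. For Vars the difference among the types did not pass (adjusted p = 0.533). Iars2 was lowest in the adenosquamous tumours (log2 -1.39, adjusted p = 0.0765).

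**Figure D4:**
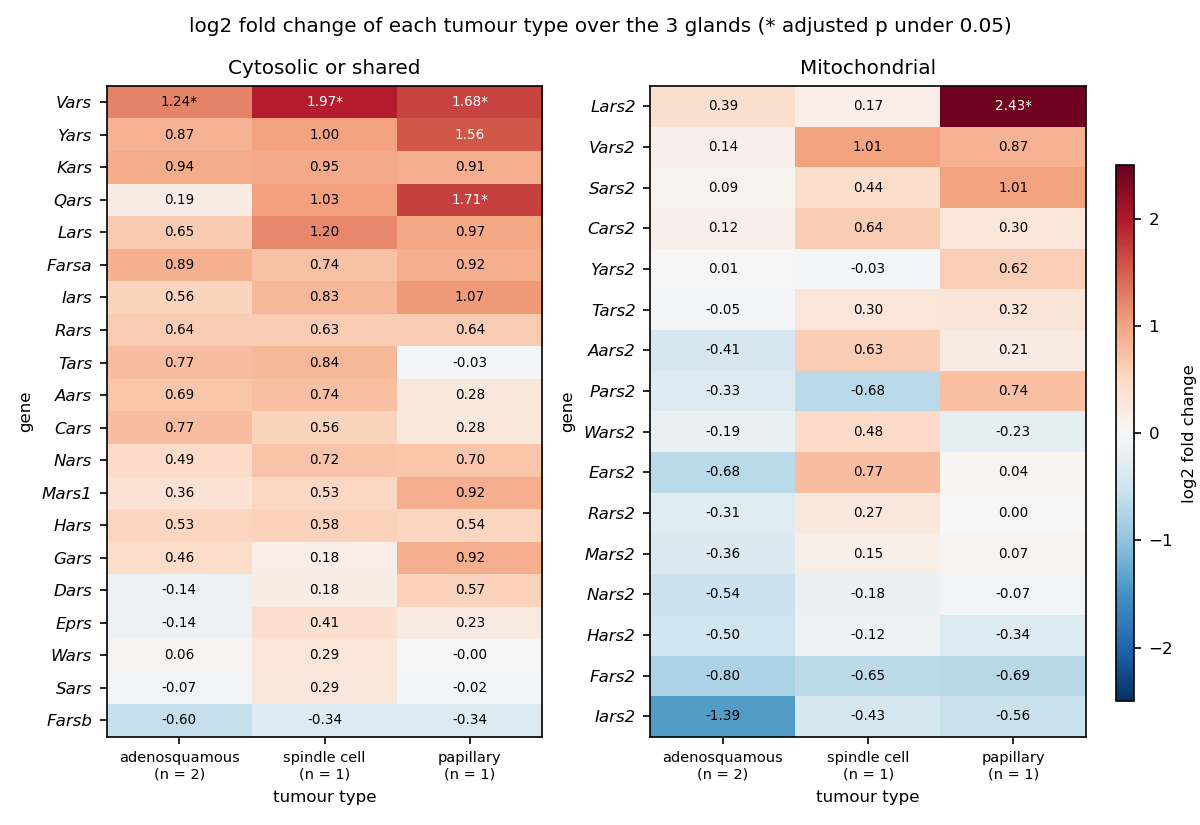
Log2 fold change of each member in each tumour type over the same 3 glands, ordered by the fold change over all tumours, with an asterisk at an adjusted p under 0.05. Red runs through most of the cytosolic rows in every type, and in the mitochondrial rows blue is most frequent in the adenosquamous column.

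The surrounding steps of translation were described by lists whose members were counted in the same fit. Of the 3 scaffold proteins of the multisynthetase complex 0 passed in edgeR, with 0 at unadjusted p under 0.05 and 0 in DESeq2 and limma-voom. Aimp1 had a log2 fold change of 0.47 (adjusted p = 0.362), Eef1e1 of 0.26 (0.732) and Aimp2 of -0.44 (0.692), the last with 22.9 CPM in gland 3 and 3.18 and 5.11 CPM in glands 1 and 2. The groups overlapped for all 3. Of 7 cytosolic elongation genes 0 passed in edgeR, and the median was 0.96. At unadjusted p under 0.05, 4 were higher and 1 lower, against 15.8% and 13.1% of all genes. DESeq2 called 3 higher and 1 lower, against 13% and 11.5% of all genes, and limma-voom 1 higher, against 4.46%. Eef2, which moves the ribosome along the mRNA, was at 1237, 962, 1549 and 2480 CPM in tumours 1a, 1b, 3 and 4 and 423, 641 and 568 CPM in the glands (log2 1.52, adjusted p = 0.0773), and Eef1g, a subunit of elongation factor 1, had log2 1.11 (adjusted p = 0.112). Eef1a2, the elongation factor of muscle and nerve, was at 5.70, 4.08, 0 and 0.105 CPM in the tumours, against 110, 0.126 and 179 CPM in glands 1, 2 and 3, in step with the muscle markers (log2 -5.31, adjusted p = 0.143).

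Mitochondrial translation factors were on the lower side: of 17 tested 0 rose, 2 fell and 15 did not pass, with a median of -0.52, and 3 above 0. Gfm1 and Gfm2, elongation and recycling factors of the mitochondrial ribosome, fell (log2 -1.10, adjusted p = 0.0333, and log2 -1.03, adjusted p = 0.0423). At unadjusted p under 0.05, 5 were lower and 0 higher, against 13.1% and 15.8% of all genes. When each library was left out in turn, 0 passed, except 1 without the papillary tumour. In those fits the share of all genes that fell ran from 0.499%, without gland 3, to 5.66%, without the papillary tumour. Qrsl1 of the mitochondrial glutaminyl-tRNA pathway (log2 0.05) and Tufm, the mitochondrial elongation factor (log2 -0.10), lay near 0, and Noa1 had log2 0.41. Gatb and Gatc, which with Qrsl1 form the mitochondrial glutaminyl-tRNA amidotransferase and were named after their values were seen, had log2 -0.78 (adjusted p = 0.180) and -0.87 (adjusted p = 0.196), with overlapping groups. Of 78 mitochondrial ribosomal protein genes 0 rose and 2 fell, Mrps15 (log2 -1.32, adjusted p = 0.0152) and Mrps36 (log2 -1.35, adjusted p = 0.0475), with a median of -0.18, and Mrps12 had log2 1.63 (adjusted p = 0.0841). Of all genes tested 4.57% fell. DESeq2 called 3 of these ribosomal genes higher and 12 lower, where it called 13% of all genes higher and 11.5% lower. In edgeR 0 of them passed without gland 3 or without tumour 1b, where 0.499% and 1.45% of all genes fell. Nuclear oxidative phosphorylation genes, 6 of 22 of which fell and 0 rose, had a median of -1.06, with Sdha at log2 -2.06 (adjusted p = 0.00905) and Ndufs1 at log2 -1.94 (adjusted p = 0.0101). The count that fell was 17 in DESeq2 and 10 in limma-voom, against 11.5% and 6.31% of all genes. In edgeR it was 13 without the papillary tumour, 3 without gland 1 and 1 without gland 3, against 5.66%, 1.41% and 0.499% of all genes. The medians of these 3 lists stand beside 0.01 for the mitochondrial synthetases as a description, without a test.

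Against 3.9% of all genes tested that rose and 4.57% that fell, 1 of 35 tRNA processing genes rose, 0 fell and 34 did not pass. Their median was 0.48. The gene that rose was Pus1, a pseudouridine synthase of tRNA (12.3 ± 1.77 CPM in tumours, 4.48 ± 1.13 CPM in glands, log2 1.43, adjusted p = 0.0374). Tsen34 of the tRNA splicing endonuclease had log2 1.44 (adjusted p = 0.0791), and Trmt10c, of mitochondrial RNase P, -0.75 (adjusted p = 0.0877). Of 31 amino acid response genes 4 rose and 2 fell, with a median of 1.22. The arginine transporter Slc7a1 rose (43.9 ± 12.0 CPM in tumours and 7.66 ± 2.66 CPM in glands, log2 2.49, adjusted p = 0.0125), as did Shmt2 and Psat1 of serine and glycine metabolism and Aldh18a1 of proline synthesis, named after their values were seen. Vldlr fell (log2 -2.52, adjusted p = 0.0127). Atf4 itself was at 74.7 ± 14.3 CPM in tumours and 48.8 ± 6.59 CPM in glands (log2 0.61, adjusted p = 0.151), and its target Asns at log2 0.59 (adjusted p = 0.484). Eif2ak3, the kinase PERK, and Gcn1l1, the partner of the uncharged-tRNA sensor GCN2, were the 2 of 16 eIF2 pathway genes that rose (log2 1.03, adjusted p = 0.0347, and log2 1.13, adjusted p = 0.0404). Eif2ak1, the kinase HRI, had log2 -0.32 (adjusted p = 0.432). These list calls were not stable, and neither were those over all genes. With each library left out in turn, 0 eIF2 pathway genes passed every time, 0 tRNA processing genes passed except 1 without the papillary tumour, and amino acid response genes called higher ran from 0, without gland 3, to 4. In the same fits the share of all genes called higher ran from 0.155%, without gland 3, to 4.22%, without the papillary tumour. DESeq2 called 8 higher and 3 lower of the tRNA processing genes, 13 higher and 3 lower of the amino acid response genes, and 4 higher and 0 lower of the eIF2 genes. Over all genes it called 13% higher and 11.5% lower. Ecd was at 19.2 ± 2.43 CPM in tumours and 15.5 ± 3.23 CPM in glands (log2 0.30, adjusted p = 0.463), and since the labels do not give the species of the transgene, this does not check it.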

How the data were processed

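RNA from 4 mammary tumours and 3 control mammary glands was sequenced as paired reads with a kit that does not mark strand, per the labels' protocols. Per the submitters' processing notes, the tools were limma, RSEM 1.3 and STAR 2.5 and the build GRCm38, with no role given for any of them. Each deposited table holds 1 library, and its column headed TPM was taken to hold expected counts (estimated counts), since the deposited values sum to different totals and 2.34% to 6.14% of them are not whole. They were rounded to whole numbers.

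Genes passing edgeR's filter (minimum count 10, minimum total 15) were scaled by TMM and tested with edgeR 4.0.16 (R 4.3.3) by the quasi-likelihood test with Benjamini-Hochberg adjustment over 14149 genes at 0.05, with 2 groups over 7 libraries, and again with each tumour type as a group. The single libraries of the spindle cell and papillary types were there assumed to vary like the glands and the adenosquamous pair. CPM uses TMM-scaled totals, and RPKM divides CPM by the exon length of GENCODE M21 on GRCm38. Alternatives were DESeq2 1.42.0, limma-voom (limma 3.58.1), other scalings and filters, removal of the 37 mitochondrial DNA genes, each library left out, gland 2 as the only control and, added after seeing the data, Farsb in place of Farsa. On simulated data with these totals (13996 genes), a log2 change of 2 was recovered in 12% of the genes given one and a log2 change of 4 in 78%, and 3 of 13798 unchanged genes were called.

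All 36 members are accounted for. Full statistics go to members that passed, to the highest and lowest of each set, and to the smallest adjusted p among types, and lists are shown by their 2 smallest adjusted p-values and 1 gene of opposite sign. Members and lists were chosen with earlier results of these data known. Nothing says whether the libraries of a group came from separate animals beyond their being called independent, and tumours 1a and 1b share a number, so p-values measure the spread between these samples. Their counts differed beyond sampling noise. The 95% exact interval on a library's mitochondrial DNA share has a half-width of at most 0.0413 percentage points, for counting error only.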

Additional observations from a re-analysis of the deposited data

Results flagged for a closer look

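In 3 members a tumour stood apart from the other tumours by a gap that filled most of the group's range, a rule that chance meets in about 1 in 20 groups, with 36 groups examined. Farsb was at 12.68 CPM in adenosquamous tumour 1a (gap over range 0.98). Wars2 was at 10.44 CPM in the spindle cell tumour (0.935). Yars2 was at 5.435 CPM in the papillary tumour (0.936).

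For 3 mitochondrial members both adenosquamous tumours lay below all glands while the spindle cell tumour lay above them, although the log2 fold change over all tumours was near 0. These were Ears2 (log2 -0.005033), Rars2 (log2 -0.06965) and Wars2 (log2 -0.001786). How many of all genes meet this rule was not counted. Wars2 was at 6.64 and 6.53 CPM in the adenosquamous tumours, and the papillary tumour, at 6.38 CPM, also lay below all glands (lowest 6.97 CPM). Ears2, the glutamyl enzyme, was at 3.83 and 3.27 CPM in the adenosquamous tumours, 9.75 CPM in the spindle cell tumour and 5.89 CPM in the papillary tumour, against 5.45 to 6.02 CPM in glands. The difference between the adenosquamous and spindle cell types was not tested by itself. In edgeR's test among all 3 types the adjusted p was 0.292 for Ears2, 0.743 for Rars2 and 0.667 for Wars2, so none passed.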

How the results depend on the processing

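No paired analysis was possible because glands and tumours are called independent by the submitters, and their numbers come from separate numbering of separate tissues, with only 1 library in 2 of the tumour types. DESeq2 called 3403 genes, 7 cytosolic members higher and 1 mitochondrial member lower, and gland 2 as the only control called 0 genes and 0 cytosolic members. Without the low-count filter the adenosquamous contrast called 2499 genes and 0 members, the spindle cell contrast 1235 genes, the papillary contrast 2408 genes, and the test among types 1494 genes and 1 member (Lars2, adjusted p = 0.0412). With each library left out, the calls ran from 97 to 1351 genes and from 0 to 1 cytosolic members. The median ran from 0.527 to 0.714 in the cytosolic and -0.144 to 0.194 in the mitochondrial set, and that of the pair differences from 0.544 to 0.755. In the types, the calls ran from 0 to 1364 genes (adenosquamous), 0 to 345 (spindle cell), 0 to 1117 (papillary) and 0 to 0 (among types), and members called from 0 to 0, except 0 to 1 in the papillary tumour.

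Of 252 member values with a library left out, 220 kept direction and side of the threshold, 4 (all Vars) lost the call and 28 changed sign, with the ranges Aars2 -0.1308 to 0.3411, Dars -0.0838 to 0.3502, Ears2 -0.3508 to 0.2215, Eprs -0.08465 to 0.264, Hars2 -0.5672 to 0.03936, Mars2 -0.2478 to 0.1368, Pars2 -0.4673 to 0.7759, Rars2 -0.1641 to 0.05707, Sars -0.2484 to 0.3909, Wars2 -0.1649 to 0.0965 and Yars2 -0.09489 to 0.5225. Of 287 values under the other alternatives 12 changed sign. Sars was at -0.02169 (DESeq2), -0.02551 (median-ratio scaling), -0.01783 (without mitochondrial DNA genes) and -0.05738 (gland 2 as the only control). Mars2 was at 0.03136 (limma-voom) and 0.000737 (gland 2 only). Without the filter, Ears2 was at 0.06023 and Wars2 at 0.05139. With gland 2 only, Cars2 was at -0.1099, Hars2 at 0.05963, Pars2 at -0.8031 and Yars2 at -0.03196. Vars was at 1.67 with gland 2 only (adjusted p = 0.401). With Farsb in place of Farsa, chosen after seeing the data, the phenylalanine difference was 0.2549 and the median over pairs 0.5424. The causes were not tested. The stricter filter gives no value for Pars2. Gland 1, with 770 counts over the mitochondrial set, limits the low members.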
